A study of Mus musculus with 24 samples.

Results

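Among SOD1-G37R mice, the lumbar spinal cords of replicates 1 and 3 were set against those of replicates 2 and 4, in MIF-treated and in untreated mice. Between them, the median of lists of disease-associated microglia, complement, lysosomal, reactive astrocyte and MHC (antigen presentation) genes was higher in replicates 1 and 3. That of neurofilament and channel lists was lower, while many single members overlapped. The genes higher in replicates 1 and 3 also had a higher transcript GC content than those lower. This split of 8 mice, out of 24 in the series, is not a group of the study. The 2 sides were chosen by the log2 expression values of these same 8 mice, because they appeared to follow the disease signature, so every difference across them is given as a description, without a test. SOD1-G37R mice (the loxSOD1-G37R line, bred with C57BL6) express human SOD1 with this mutation throughout the body, and non-transgenic (NT) mice lack it.

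Of the 8 mice, 4 were SOD1-G37R males injected after disease onset through the tail vein with AAV-PHP.eB-MIF, a vector that carries macrophage migration inhibitory factor (MIF), and 4 were untreated SOD1-G37R males. All had lumbar cord taken, at a symptomatic stage and about a year of age in the untreated mice. The age of the MIF-treated mice is not given in the sources used here. Another 4 NT males, numbered 1 to 4, and 12 mice of a separate experiment (experiment 1, with SOD1-G37R and NT mice of both sexes, 3 of each sex and genotype) are not among the 8 and were used for comparison. Which mice defined the disease signature that the split appeared to follow is not stated. The experiment of each mouse was read from its label code and the methods, and no source states it for the MIF-treated mice. The numbers 1 to 4 come from the labels, which do not say what same-numbered mice share.

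In this model, mutant SOD1 damages motor neurons late in life. As their axons degenerate, microglia take on a phagocytic state with induced lysosomal, lipid-handling and complement genes, and astrocytes enlarge and produce more intermediate filament. Neurons meanwhile lose transcripts for neurofilaments, which fill large motor axons, and for the channels and receptors that carry their signals.

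Values are log2 expression per mouse for 15524 genes, deposited after the authors removed the difference between experiments. They run from -0.79 to 14.8, and the depth of each single library is unknown here. Among genes above the median level of 4.18, the median SD was 0.18 in MIF-treated, 0.21 in untreated SOD1-G37R and 0.18 in NT mice of the same set, and between 0.14 and 0.19 in the 4 groups of experiment 1. Hoxc10, a Hox gene of lumbar segments, and Gfap and Nefh, markers of astrocytes and large axons, were detected in every mouse named here. Human SOD1 was not analysed. Mouse Mif had log2 values of 10.02, 9.77, 9.73 and 9.57 in MIF-treated replicates 1, 3, 2 and 4, against 9.72, 9.78, 9.53 and 9.71 in untreated replicates 1, 3, 2 and 4. The treatment groups overlapped, and since the sources do not say whether vector transcripts are counted under this gene, its level is no check of the labels.

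A gene was counted as higher in replicates 1 and 3 where, in each treatment group, both of these mice lay above both of replicates 2 and 4 and the mean of the 2 within-group differences was at least 0.5 on the log2 scale. By this rule 160 genes were higher (1.03% of all genes) and 96 lower (0.618%). The difference below is always replicates 1 and 3 minus replicates 2 and 4, averaged over the MIF-treated and untreated mice. Its median was 0.60 among the higher and -0.55 among the lower genes, and 0.003 over all genes. Without the size limit, 1153 genes (7.43%) lay wholly above and 1000 (6.44%) wholly below. Just inside the limit were Cdk5rap3 at 0.50 and Syne1 at -0.50, and just outside were Pdlim2 at 0.50 and Zfhx3 at -0.50. With each mouse centred on its median the counts were 207 higher and 62 lower, and with quantile normalization 133 and 107. Without MIF-treated mouse 3 they were 262 and 176, without untreated mouse 1 they were 259 and 152, and without untreated mouse 4 they were 200 and 223. Without MIF-treated mouse 1 they were 139 and 70. A further 93 genes differed by 0.5 or more but overlapped.

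Genes of phagocytes were among those of largest positive difference. Cyba (ENSMUSG00000006519; chromosome 8, 122424776 to 122432930, GRCm38) encodes the p22phox subunit of the phagocyte NADPH oxidase. It had log2 values of 8.59 and 8.56 in MIF-treated replicates 1 and 3, against 7.78 and 7.63 in replicates 2 and 4. In untreated mice its values were 8.26 and 9.10 in replicates 1 and 3, against 7.90 and 7.63 in replicates 2 and 4. The mean difference was 0.89, while the 4 NT mice, at 5.94, 6.16, 6.01 and 6.15, lay below every SOD1-G37R mouse. In experiment 1 Cyba was higher in SOD1-G37R than in NT mice by 2.21 ± 0.10 (SE, limma, adjusted p = 8.51e-11). Lgals3, which encodes galectin-3 of activated microglia, had values of 8.98 and 8.89 in MIF-treated replicates 1 and 3, against 8.35 and 8.12 in replicates 2 and 4. Untreated mice had 8.68 and 9.13 in replicates 1 and 3, against 8.34 and 8.16 in replicates 2 and 4. Again no mouse of either treatment crossed, and the mean difference of Lgals3 was 0.68. Apoc1, a lipoprotein gene, had 6.23 and 6.03 in MIF-treated replicates 1 and 3, against 5.43 and 5.40 in replicates 2 and 4. In untreated mice Apoc1 had 6.06 and 6.28 in replicates 1 and 3, against 5.59 and 4.85 in replicates 2 and 4. In bulk tissue, more cells of a type and more RNA per cell cannot be told apart.

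The microglial list did not move as a block. Of 24 genes of disease-associated microglia, 22 had a positive difference, with a median of 0.36, but only Lgals3, Axl (0.55, a receptor for dying cells) and Apoe (0.32, the main lipid carrier of the nervous system) separated without overlap, against 7.43% of all genes. In experiment 1, 23 of the 24 were higher in SOD1-G37R mice, against 13.1% of all genes. Trem2, the lipid-sensing receptor that drives this state, had 8.53 and 8.90 in MIF-treated replicates 1 and 3, against 8.27 and 8.13 in replicates 2 and 4. In untreated mice Trem2 was at 8.10 and 9.13 in replicates 1 and 3, against 8.32 and 8.02 in replicates 2 and 4, so that untreated mouse 2 lay above mouse 1. The same order appeared in Cst7, encoding the protease inhibitor cystatin F, at 4.98 and 6.25 in untreated replicates 1 and 3, against 5.65 and 4.63 in replicates 2 and 4. Its MIF-treated values, 5.19 and 6.11 in replicates 1 and 3 against 5.65 and 5.79 in replicates 2 and 4, had mouse 1 lowest and mouse 3 highest. Spp1, which encodes osteopontin, had 8.20 and 9.02 in MIF-treated replicates 1 and 3, against 8.38 and 8.59 in replicates 2 and 4, and 8.07 and 9.54 in untreated replicates 1 and 3, against 9.13 and 7.64 in replicates 2 and 4. Lyz2, the lysozyme gene of macrophages, had a mean difference of -0.46, which ranged from -0.89 to -0.02 when 1 mouse was left out. Its values were 7.94 and 9.67 in MIF-treated replicates 1 and 3, against 9.34 and 9.19 in replicates 2 and 4. Untreated mice had 7.62 and 9.01 in replicates 1 and 3, against 9.17 and 8.35 in replicates 2 and 4. Cst7 and Spp1 were thus highest in mouse 3 of both treatment groups, and Lyz2 was lowest in mouse 1 of both. Among 14 genes of homeostatic microglia, only Csf1r (0.46), the receptor that keeps microglia alive, separated without overlap, against 7.43% of all genes. Their median difference was 0.08.

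Complement genes were also apart. Of 16 genes measured, C1qb (0.68), Serping1 (0.65), C1qa (0.63), C4b (0.41) and C5ar1 (0.11) lay wholly higher in replicates 1 and 3, none lay wholly lower (7.43% and 6.44% of all genes did), and the median difference was 0.32. C1qb encodes a chain of C1q, which starts the classical cascade and tags synapses and debris. It had 10.14 and 9.96 in MIF-treated replicates 1 and 3, against 9.49 and 9.44 in replicates 2 and 4. Untreated values of C1qb were 10.04 and 10.14 in replicates 1 and 3, against 9.35 and 9.27 in replicates 2 and 4. Mice within each pair were close, while NT mice ranged from 8.03 to 8.25. Of 28 lysosomal genes, 26 had a positive difference and 6 lay wholly higher, among them Grn (0.69), Ctsa (0.44), Hexa (0.41) and Npc2 (0.31), with none wholly lower, against 7.43% and 6.44% of all genes. Grn, which encodes progranulin, a lysosomal factor of microglia and neurons, had 9.51 and 9.31 in MIF-treated replicates 1 and 3, against 8.70 and 8.77 in replicates 2 and 4. In untreated mice Grn was at 9.45 and 9.63 in replicates 1 and 3, against 8.92 and 8.75 in replicates 2 and 4. Ctsb, a cathepsin, differed by -0.17 in MIF-treated and by 0.29 in untreated mice.

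Astrocyte genes followed the split in part. S1pr3, Timp1, Gfap, Lcn2 and Steap4 lay wholly higher, 5 of 18 genes of the reactive list (7.43% of all genes), and its median difference was 0.25. Gfap (ENSMUSG00000020932; chromosome 11, 102887336 to 102900912), the intermediate filament of astrocytes, had 12.62 and 12.81 in MIF-treated replicates 1 and 3, against 12.16 and 12.10 in replicates 2 and 4. Untreated mice had 12.51 and 13.07 in replicates 1 and 3, against 12.41 and 12.19 in replicates 2 and 4, so the groups were only just apart. S1pr3, a sphingosine 1-phosphate receptor, had 5.46 and 5.67 in MIF-treated replicates 1 and 3, against 4.83 and 4.64 in replicates 2 and 4. In untreated mice S1pr3 had 5.19 and 6.29 in replicates 1 and 3, against 5.16 and 4.69 in replicates 2 and 4. Serpina3n, an acute-phase protease inhibitor with an experiment 1 difference of 3.43 ± 0.09 (SE, limma adjusted p = 1.19e-13), did overlap. It had 10.52 and 10.89 in MIF-treated replicates 1 and 3, against 10.07 and 10.42 in replicates 2 and 4, and 10.46 and 11.06 in untreated replicates 1 and 3, against 10.50 and 9.95 in replicates 2 and 4. The 15 homeostatic astrocyte genes had a median difference of -0.01. Of 18 genes of mature oligodendrocytes, 2 lay wholly higher and 4 wholly lower, against 7.43% and 6.44% of all genes. Opalin, an oligodendrocyte membrane protein gene, had 7.43 and 7.40 in MIF-treated replicates 1 and 3, against 6.81 and 7.15 in replicates 2 and 4. Its untreated values were 7.49 and 7.71 in replicates 1 and 3, against 7.13 and 6.47 in replicates 2 and 4. Mal, a membrane protein gene of myelin, differed by -0.45, and Mag, an adhesion protein of the inner myelin layer, by 0.36.

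**Figure D1:**
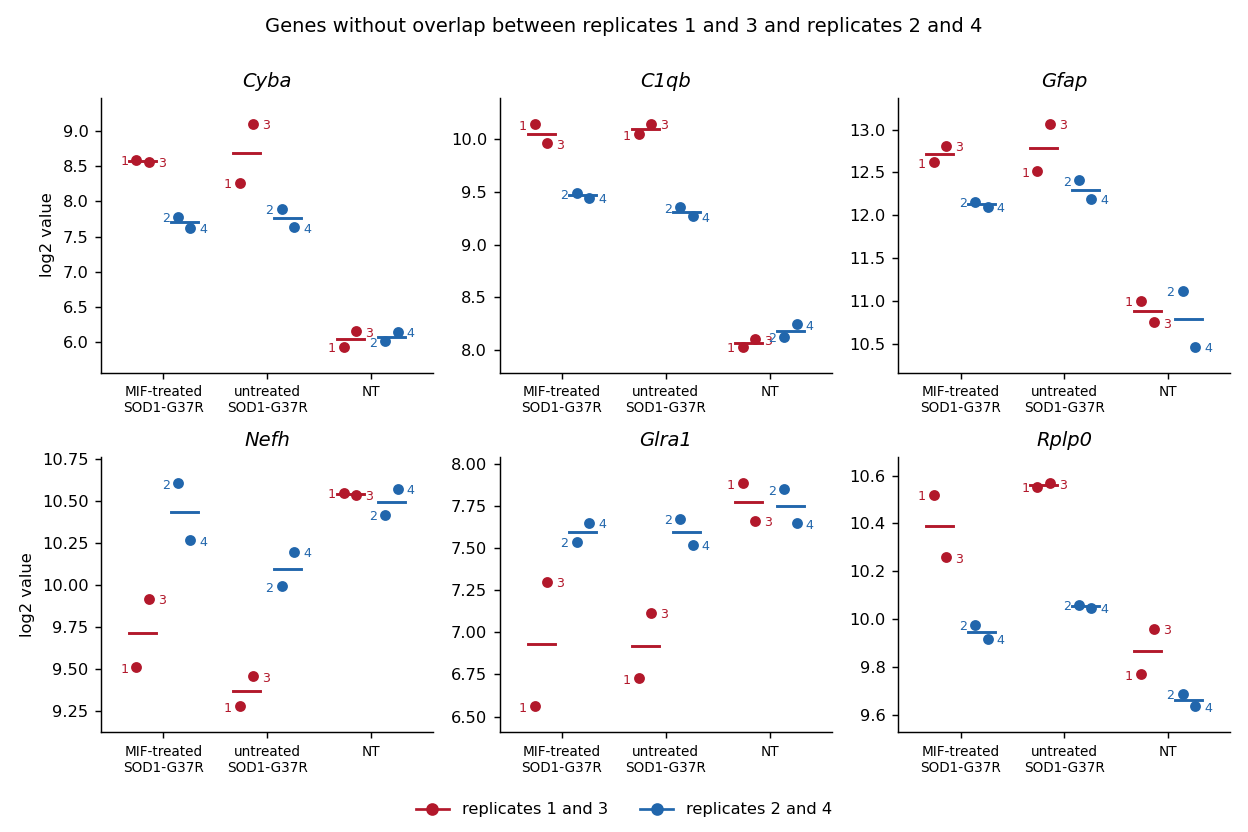
Log2 values (vertical axes, not starting at 0) of 6 genes in MIF-treated SOD1-G37R, untreated SOD1-G37R and NT mice. Each point is 1 mouse with its replicate number, red for replicates 1 and 3 and blue for replicates 2 and 4, and short lines are the means of 2 mice. In both SOD1-G37R groups Cyba, C1qb, Gfap and Rplp0 were higher in replicates 1 and 3 and Nefh and Glra1 were lower, without overlap, while in NT mice the replicates of Cyba, Gfap, Nefh and Glra1 overlapped.

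Genes of neurons stood among the lower set. Nefh (ENSMUSG00000020396; chromosome 11, 4938754 to 4948064) encodes the heavy neurofilament chain. It had 9.51 and 9.92 in MIF-treated replicates 1 and 3, against 10.61 and 10.27 in replicates 2 and 4. In untreated mice it had 9.28 and 9.46 in replicates 1 and 3, against 9.99 and 10.20 in replicates 2 and 4. NT mice lay between 10.42 and 10.57, so that MIF-treated mouse 2 was level with them while the 4 mice numbered 1 and 3 were all below 10. The medium chain gene Nefm had 9.62 and 10.16 in MIF-treated replicates 1 and 3, against 10.73 and 10.61 in replicates 2 and 4. Untreated values of Nefm were 9.58 and 9.87 in replicates 1 and 3, against 10.22 and 10.32 in replicates 2 and 4. Kif5a, a kinesin motor of axonal transport, had 8.61 and 9.39 in MIF-treated replicates 1 and 3, against 9.82 and 9.41 in replicates 2 and 4. Untreated mice had 8.79 and 8.66 in replicates 1 and 3, against 9.02 and 9.55 in replicates 2 and 4. Of 15 neurofilament and axon genes, 6 lay wholly lower in replicates 1 and 3 (6.44% of all genes did) and none wholly higher, with a median difference of -0.30. In experiment 1, 13 of the 15 were lower in SOD1-G37R mice, against 11.1% of all genes. None of 16 motor neuron and cholinergic genes separated without overlap, and 14 of them had a negative difference, with a median of -0.20. Chodl, a marker of fast motor neurons, had the largest at -0.56, and Chat, the enzyme of acetylcholine synthesis, stood at -0.26.

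Genes of glycine transmission and of channels were among the lower set too. Glra1, the glycine receptor subunit of the adult cord, had 6.56 and 7.30 in MIF-treated replicates 1 and 3, against 7.54 and 7.65 in replicates 2 and 4. Its untreated values were 6.73 and 7.11 in replicates 1 and 3, against 7.68 and 7.52 in replicates 2 and 4, and NT mice ranged from 7.65 to 7.89. Slc6a5, the glycine transporter of inhibitory terminals, had 5.01 and 5.61 in MIF-treated replicates 1 and 3, against 5.77 and 6.27 in replicates 2 and 4. In untreated mice Slc6a5 had 5.30 and 4.91 in replicates 1 and 3, against 5.82 and 5.63 in replicates 2 and 4. In both genes mouse 1 or 3 never reached the level of mouse 2 or 4. Kcna2, a potassium channel of axons near the node, had 6.92 and 7.24 in MIF-treated replicates 1 and 3, against 7.88 and 7.85 in replicates 2 and 4. Kcna2 in untreated mice was at 7.02 and 7.0 in replicates 1 and 3, against 7.78 and 7.28 in replicates 2 and 4. Of 15 potassium and sodium channel genes, 5 lay wholly lower, among them Kcna2 (-0.65), Kcnab1 (-0.64), Scn8a (-0.52) and Scn1a (-0.47), and none wholly higher (6.44% and 7.43% of all genes). The difference was negative in 12 of the 15 and positive in 3. Kcns1, a potassium channel subunit gene outside this list, went the other way, with a difference of 0.77 to 0.96 when 1 mouse was left out. Of 24 synapse genes, 5 lay wholly lower, among them Slc6a5, Snap25, Gad1 and Nsf, and none wholly higher (6.44% and 7.43% of all genes). The list median was -0.14.

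Genes of cholesterol synthesis were lower in replicates 1 and 3, with a median difference of -0.25 over 19 genes, which was -0.39 in MIF-treated and -0.11 in untreated mice. Of these, 5 lay wholly lower and none wholly higher (6.44% and 7.43% of all genes did), among them Sqle (-0.50), Cyp51 (-0.46), Hsd17b7 (-0.40) and Hmgcs1 (-0.32), all enzymes of the pathway. Sqle, which encodes squalene epoxidase, had 4.99 and 5.28 in MIF-treated replicates 1 and 3, against 5.80 and 5.59 in replicates 2 and 4. In untreated mice Sqle had 5.28 and 5.02 in replicates 1 and 3, against 5.46 and 5.73 in replicates 2 and 4. In experiment 1, 13 of the 19 genes were lower in SOD1-G37R mice, against 11.1% of all genes.

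Ribosomal protein genes were the list with the most members apart. Of 22 measured, 14 lay wholly higher in replicates 1 and 3 and none wholly lower (7.43% and 6.44% of all genes), with a median difference of 0.26. Rplp0, which encodes a protein of the ribosomal stalk, had 10.52 and 10.26 in MIF-treated replicates 1 and 3, against 9.98 and 9.92 in replicates 2 and 4. In untreated mice it had 10.55 and 10.57 in replicates 1 and 3, against 10.06 and 10.05 in replicates 2 and 4. In NT mice it had 9.77 and 9.96 in replicates 1 and 3, against 9.69 and 9.63 in replicates 2 and 4, so there too the mice numbered 1 and 3 were higher. Pseudogenes made up 35 of the 160 higher genes (21.9%), against 7.33% of all genes, and 1 of the 96 lower genes. Several are copies of ribosomal protein genes, such as Rpl36-ps2 (0.75), and reads of near-identical copies may be split between them, so these values are uncertain.

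**Figure D2:**
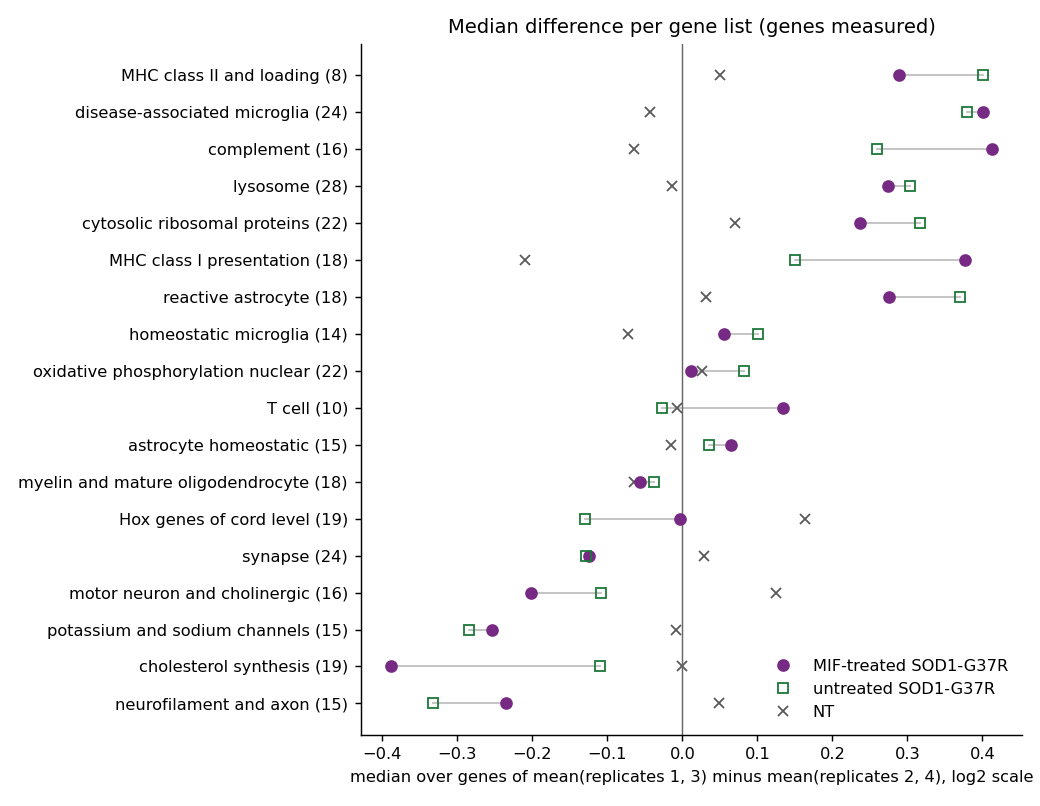
Median over the genes of each list of the difference between replicates 1 and 3 and replicates 2 and 4 (horizontal axis, log2 scale), for MIF-treated SOD1-G37R (filled circles), untreated SOD1-G37R (open squares) and NT mice (crosses), with the number of genes measured in brackets. In both SOD1-G37R groups the medians of disease-associated microglia, complement, lysosome, ribosomal protein, reactive astrocyte and MHC class I and II genes lay above 0. Those of neurofilament, channel, cholesterol synthesis, motor neuron and synapse genes lay below 0.

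The disease change of each gene was next taken from the 12 mice of experiment 1, none of which belongs to the split. There, limma called 2030 genes higher (13.1%) and 1720 lower (11.1%) in SOD1-G37R than in NT mice, at a Benjamini-Hochberg adjusted p under 0.05. With each mouse centred on its median the counts were 1464 and 2559. Of the 160 genes higher in replicates 1 and 3, 99 (61.9%) were higher in SOD1-G37R mice of experiment 1, 2 were lower (Gm2830 and Spred3) and 59 were not called. Of the 96 genes lower in replicates 1 and 3, 42 (43.8%) were lower, 1 was higher (Rab10) and 53 were not called. Read from the other side, the 2030 genes had a median split difference of 0.15 and the 1720 genes one of -0.05, and 19.3% of the first separated upwards and 14.5% of the second downwards, against 6.07% and 6.19% of genes not called there. Because the split was noticed for following the disease signature, these shares are a description and not independent evidence of it.

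By their level of the 2030 genes, the mice did not fall into the same 2 sets. Their median over the NT mean was 0.35 and 0.41 in MIF-treated replicates 1 and 3, against 0.21 and 0.29 in replicates 2 and 4. In untreated mice it was 0.33 and 0.50 in replicates 1 and 3, against 0.34 and 0.21 in replicates 2 and 4. Untreated mouse 2 thus stood slightly above mouse 1, and the description of the split as one along the disease signature held without overlap among the MIF-treated mice and not among the untreated. For the 1720 lower genes the medians were -0.18 and -0.27 in MIF-treated replicates 1 and 3, against -0.15 and -0.23 in replicates 2 and 4, and -0.20 and -0.34 in untreated replicates 1 and 3, against -0.28 and -0.09 in replicates 2 and 4. Both groups overlapped on this side, with mouse 3 farthest from NT in each. With the GC and length trend removed, these medians were -0.24 and -0.29 in MIF-treated replicates 1 and 3, against -0.12 and -0.20 in replicates 2 and 4, without overlap, while the untreated mice still overlapped.

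A property of the transcripts also went with the split. The median GC content of the last 500 transcript bases was 54.0% in the 160 higher genes and 42.8% in the 96 lower genes, against 48.0% in all genes, and the median transcript lengths were 809, 2320 and 1339 bases. MARS-seq reads the ends of transcripts, which is why the last bases were taken. Over 7559 protein-coding genes above the median level, the split difference had a Spearman correlation of 0.45 with this GC content and of -0.24 with length, across genes that share the same 8 libraries. In MIF-treated mice the correlation with GC was 0.47, in untreated mice 0.32, and in NT replicates 1 and 3 against 2 and 4 it was 0.36. The genotype difference of experiment 1 had the other sign, at -0.21. With the genes in 5 bins of rising GC, the median split difference was -0.14, -0.04, 0.03, 0.10 and 0.15. Among genes not called in experiment 1 the bins ran from -0.15 to 0.17, among genes higher there from 0.03 to 0.33, and among genes lower there from -0.26 to 0.04.

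The medians of genes higher in experiment 1 overlapped among untreated mice. Per mouse, the slope of expression on GC content separated replicates 1 and 3 from 2 and 4 without overlap in both treatment groups. In untreated mice the sides were only just apart, at 0.036 in mouse 3 against 0.024 in mouse 4. The slopes come from the same values that chose the split. In log2 units per 10% of GC it was 0.15 and 0.03 in MIF-treated replicates 1 and 3, against -0.05 and -0.13 in replicates 2 and 4. Untreated mice had slopes of 0.08 and 0.04 in replicates 1 and 3, against -0.14 and 0.02 in replicates 2 and 4. In each treatment group mouse 1 had the steepest positive slope, while mouse 3 had the highest disease-gene median. The NT mice spanned a similar range, at 0.16 in mouse 3 and 0.01, -0.06 and -0.10 in mice 4, 1 and 2. Removing the GC and length trend from each mouse, an alternative chosen after seeing the data, gave 85 higher and 68 lower genes, of which 57 and 41 were also in the sets above. Of these 85, 64.7% were higher in SOD1-G37R mice of experiment 1, and of the 68, 54.4% were lower. The list medians then were 0.34 for disease-associated microglia, 0.41 for reactive astrocytes, 0.29 for complement, -0.34 for neurofilament and axon genes and 0.17 for ribosomal proteins. What sets the GC slope of a library was not tested, and sequencing depth and RNA quality per mouse are unknown.

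**Figure D3:**
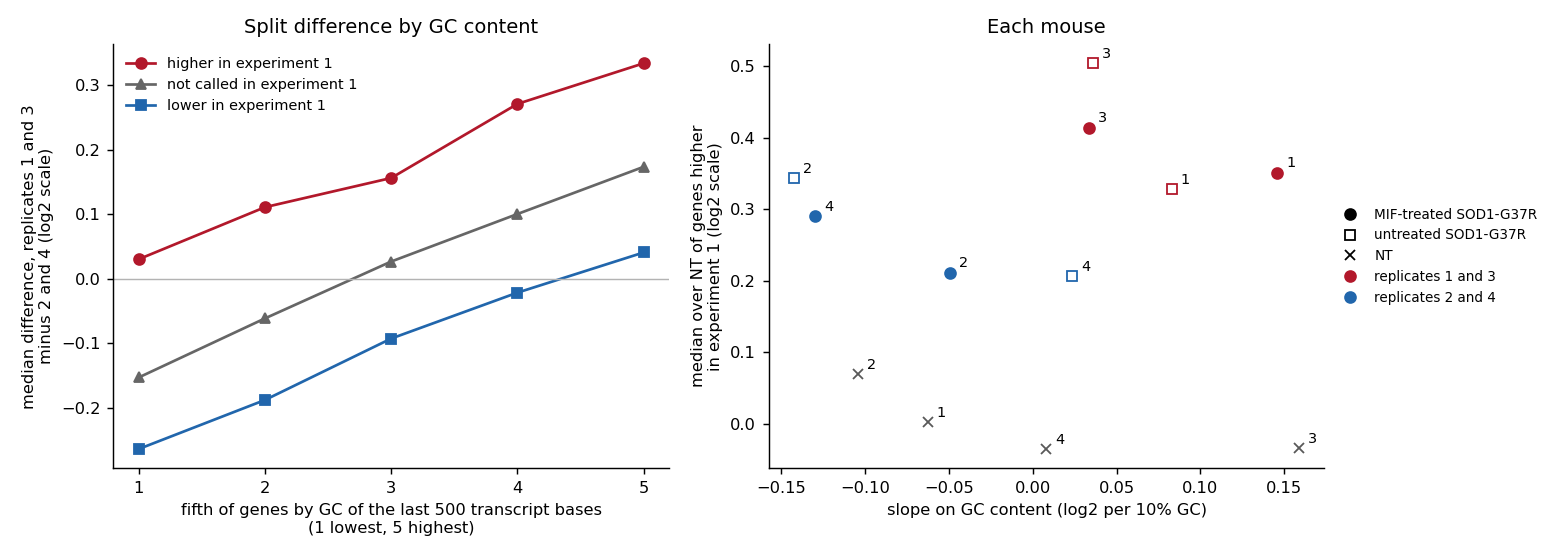
On the left, the median difference between replicates 1 and 3 and replicates 2 and 4 (log2 scale) in 5 bins of genes by GC content of the last 500 transcript bases, for genes higher, not called and lower in SOD1-G37R mice of experiment 1. On the right, each mouse by its slope on GC content (log2 per 10% GC) and its median over NT of the genes higher in experiment 1, with replicate numbers. Lines rise with GC, and among SOD1-G37R mice those numbered 1 lie farthest right and those numbered 3 at the top of their treatment groups.

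NT mice with the same numbers gave a comparison that the split had not used. In NT replicates 1 and 3 against 2 and 4, limma called 1 gene higher (0.00644%) and none lower, with 493 genes at an unadjusted p under 0.05, and with a trend in limma 1 gene was lower. With 2 mice a side this fit recovered none of 200 genes changed by 1 in simulated data, so the low count says little. Without NT mouse 1 it called 10 higher and 12 lower. Of the 160 higher genes, 22 lay wholly higher in NT replicates 1 and 3 and 11 wholly lower (14.3% and 14.7% of all genes did). For the 96 lower genes, 17 lay wholly lower and 3 wholly higher. The median NT difference was 0.05 for the higher and -0.17 for the lower set.

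Treatment is balanced over the split, so the mean difference between MIF-treated and untreated mice does not depend on it. Limma called no gene higher and none lower, with 464 genes at an unadjusted p under 0.05 and 2 higher with a trend in limma. In simulated data this fit called 86.5% of genes changed by 1 and none of those changed by 0.5. The smallest adjusted p, 0.195, belonged to Cd74, the MHC class II invariant chain and a receptor for MIF. Cd74 had 7.79, 7.26, 7.32 and 8.14 in MIF-treated replicates 1, 3, 2 and 4, against 6.07, 6.57, 6.44 and 6.26 in untreated replicates 1, 3, 2 and 4. All 4 MIF-treated mice lay above all 4 untreated mice, by 1.29 ± 0.19 on average (SE), and Cd74 did not follow the split, with a difference of -0.12. When limma was fitted to genes above the median level alone, or without MIF-treated mouse 2, 1 gene was called. Among the 160 and 96 genes of the split, the smallest adjusted p for treatment in the limma fit to all genes was 0.9997. That fit had no term for the split, so the large difference of these genes across it counted as residual spread. The value therefore says little about treatment in them. With the split as a term limma again called no gene, with 649 genes at an unadjusted p under 0.05.

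Most of the most variable genes among the 8 mice did not meet the rule of the split. Of the 50 genes above the median level with the largest residual SD, 8 met it as higher and 1 as lower. Of the top 200, 48 met it as higher and 19 as lower. Over genes above the median level the residual SD, with treatment means removed, had a median of 0.20, and 7 genes exceeded 1, namely 4 hemoglobin chain genes, Gm6204, Mir692-1 and Gapdh. Hbb-bs, the adult beta-globin of red blood cells, had 11.84 and 7.18 in MIF-treated replicates 1 and 3, against 6.67 and 6.96 in replicates 2 and 4. Untreated mice had 11.47 and 7.08 in replicates 1 and 3, against 10.49 and 5.97 in replicates 2 and 4, and NT mice ranged from 5.43 to 6.99. Hbb-bs was thus high in 3 mice, MIF-treated mouse 1 and untreated mice 1 and 2, of which both mice numbered 1 belong to the higher side of the split. Of 6 red blood cell genes all 6 had a positive difference, with a median of 1.74 that was 2.40 in MIF-treated and 1.0 in untreated mice. Bpgm alone lay wholly higher, against 7.43% of all genes. The mean difference of Hbb-bs ranged from 0.71 to 3.03 when 1 mouse was left out. The mice numbered 3, on the same side of the split, had Hbb-bs at 7.18 and 7.08. These values lay below untreated mouse 2, and above MIF-treated mice 2 and 4, untreated mouse 4 and every NT mouse. The part of blood content in the results above was not tested.

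Gapdh, the glycolytic enzyme used as a reference gene, had 6.85 and 6.82 in MIF-treated replicates 1 and 3, against 9.61 and 6.54 in replicates 2 and 4. In untreated mice Gapdh had 10.48 and 6.93 in replicates 1 and 3, against 7.57 and 6.79 in replicates 2 and 4, and NT mouse 4 had 10.38. It was high in single mice of each group, with a residual SD of 1.59, and its many processed copies make its count uncertain. H2-Ab1, a chain of MHC class II, had 7.10 and 5.32 in MIF-treated replicates 1 and 3, against 5.44 and 6.30 in replicates 2 and 4. Its untreated values were 5.73 and 5.08 in replicates 1 and 3, against 4.93 and 4.21 in replicates 2 and 4. None of 8 MHC class II and loading genes separated in both treatment groups, where 7.43% of all genes lay wholly higher and 6.44% wholly lower. Of the 8, 7 had a positive difference, and the list median was 0.38, with 0.29 in MIF-treated and 0.40 in untreated mice. Among 18 genes of MHC class I presentation, 16 had a positive difference, with a median of 0.26. Of these 18, 4 lay wholly higher and none wholly lower (7.43% and 6.44% of all genes). Hoxc10, whose level falls above the lumbar cord, had 4.88 and 6.0 in MIF-treated replicates 1 and 3, against 5.66 and 6.97 in replicates 2 and 4. Untreated Hoxc10 values were 6.65 and 5.95 in replicates 1 and 3, against 6.71 and 6.76 in replicates 2 and 4. None of 19 Hox genes separated in both groups (7.43% of all genes lay wholly higher and 6.44% wholly lower). Their median difference was -0.08, with 12 negative and 7 positive. With 1 mouse left out, the difference ranged from -0.98 to -0.33 for Hoxc10, -1.04 to -0.20 for Hoxd10 and -0.70 to -0.23 for Hoxa10. The part of the cord level sampled was not tested. Mouse Sod1 had 10.34 and 9.98 in MIF-treated replicates 1 and 3, against 10.02 and 10.08 in replicates 2 and 4, and 10.50 and 10.11 in untreated replicates 1 and 3, against 10.10 and 10.11 in replicates 2 and 4. Lists of T cells, oligodendrocyte precursors, Schwann cells, nuclear oxidative phosphorylation and proliferation had medians between -0.03 and 0.04.

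**Figure D4:**
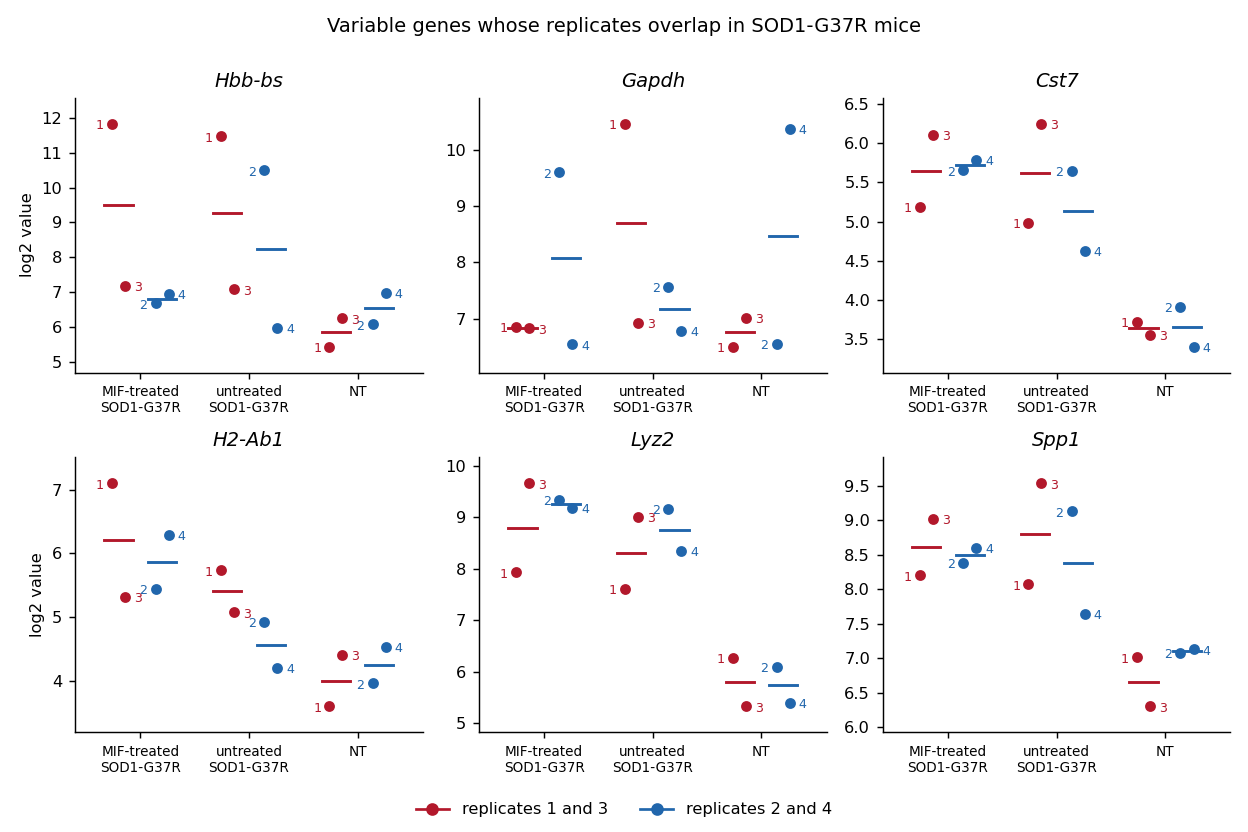
Log2 values (vertical axes, not starting at 0) of 6 variable genes, with mice, colours and lines as in the plot of genes without overlap. Hbb-bs was high in MIF-treated mouse 1 and untreated mice 1 and 2, Gapdh in MIF-treated mouse 2, untreated mouse 1 and NT mouse 4, and Cst7 in mouse 3 of both SOD1-G37R groups.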

How the data were processed

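Libraries were bulk MARS-seq of lumbar cord. Per the submitters' processing notes, tools included Trim Galore 0.4.5, cutadapt 1.15, STAR 2.5.2a and RSEM 1.2.28. The authors deposited log2 values for each mouse, after removing the batch with SVA/ComBat; the transform is not given in the sources used here, and the depth of single libraries is unknown here. Columns with the authors' own fold changes and p-values, and a table of cutoffs, were not used. The deposited table named 13744 genes, and GENCODE M21 named 1776 more and supplied positions on GRCm38, transcript lengths and GC content.

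The split was described by differences within each treatment group and by overlap of single mice, without a test. NT replicates, genotype in experiment 1 (with sex as a covariate) and treatment were compared with limma 3.58.1 in R 4.3.3 on all genes, without trend or filter, two-sided, with Benjamini-Hochberg adjustment at 0.05. Each fit was tested on simulated data in which 200 genes changed. Named genes were the 15 of largest difference per direction above the median level, the 3 of largest difference in each of 36 lists, the 10 most variable overlapping genes, per test at most 8 called genes, taken by adjusted p, and the 6 per direction of smallest genotype difference. A selection of these is given, and some are not reported here. The members, lists and rules were chosen with earlier results of these data known. Other steps used numpy 2.4.6, pandas 2.3.3 and matplotlib 3.10.9 in Python 3.11.15.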

Additional observations from a re-analysis of the deposited data

Results flagged for a closer look

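In groups of 4 mice, the highest or lowest mouse was marked where its gap to the nearest other exceeded 0.829 of the range (Dixon's limit). In groups of 6 mice the limit was 0.625. Of 99 groups checked, 6 were marked. These limits are set to mark 1 group in 20 by chance. The genes were chosen with their values known, so that rate does not apply here. Hbb-bs was highest in MIF-treated mouse 1, at 11.84. Gapdh was highest in MIF-treated mouse 2, at 9.61, and in NT mouse 4, at 10.38. Sod1 was highest in untreated SOD1-G37R mouse 1, at 10.50. Hoxc10 was lowest in untreated SOD1-G37R mouse 3, at 5.95, and Spp1 in NT mouse 3, at 6.30.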

How the results depend on the processing

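Of the split's counts, 160 higher and 96 lower, the lower fell to 62 with median centring. A minimum difference of 0.3 gave 650 and 539 and one of 1 gave 2 and 0. The untreated SOD1-G37R mice alone gave 289 and 223 and the MIF-treated mice alone 345 and 308, where fewer mice had to separate. Removing the GC and length trend, chosen after seeing the data, gave 85 higher and 68 lower genes. Only 57 and 41 of these were among the 160 and 96, so 103 and 55 genes were lost. Leaving out 1 mouse gave 139 to 262 higher and 70 to 223 lower. In NT replicates 1 and 3 against 2 and 4, limma called 2 to 10 higher and 0 to 12 lower with 1 mouse left out, the lone mouse being assumed to vary like the other side, and 1 lower with a trend. For SOD1-G37R against NT in experiment 1 leaving out 1 mouse gave 1724 to 2089 higher and 1404 to 1808 lower. For MIF-treated against untreated mice it gave 0 to 1 higher and 0 lower, a trend in limma gave 2 higher and the genes above the median level 1 higher. Whether the replicate numbers pair the mice is not given in the labels. Deviations of MIF-treated and untreated mice numbered 1, 2, 3 and 4 correlated by 0.37, 0.11, 0.25 and 0.06 over all genes. For mice 1 and 3 the same number was the best match. Untreated mouse 2 correlated best with MIF-treated mouse 4, at 0.37, and untreated mouse 4 with MIF-treated mouse 2, at 0.22. With the replicate block limma called 0 genes in either direction, as without it, with 719 genes at an unadjusted p under 0.05. For named genes 1979 of the single values moved by less than the residual SD and 10 by more, and none that met the rule changed sign. Among list medians 107 moved by less and 1 by more. The residual SD includes the split difference itself, so a large move can fall below it and these counts do not show stability. Gapdh ranged from -0.75 to 1.03 with 1 mouse left out and was counted as moving by less. The unknown depth of single libraries limits the precision that can be given.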
